A study of Mus musculus with 4 samples.

Results

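The Hox genes encode homeodomain transcription factors. In the mouse they lie in clusters named a to d, and genes of the same number in different clusters are paralogues that arose by duplication of an ancestral cluster. In the embryo, low-numbered (anterior) genes act towards the head and high-numbered (posterior) genes towards the tail. In blood formation, genes of the a and b clusters are known for supporting the self-renewal of stem and progenitor cells, and their expression is shut down as cells mature. Hox proteins bind DNA with partners of the TALE class, the Meis and Pbx proteins. Proteins of the trithorax side, led by the histone methyltransferase Kmt2a, keep Hox genes active, and Polycomb proteins keep them silent.

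All probe sets whose symbol in the platform table was Hoxa, Hoxb, Hoxc or Hoxd followed by a number were taken, with no filter on level. There were 38 such genes among 23185 named genes (25206 probe sets in all): 10 of the a cluster on chromosome 6, 10 of the b cluster on chromosome 11, 9 of the c cluster on chromosome 15 and 9 of the d cluster on chromosome 2. Probe sets without a symbol were not analysed here.

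The values came from long-term haematopoietic stem cells (LT-HSCs) of mouse bone marrow, the cells that sustain blood formation for life. Marrow cells sorted as Lin- ckit+ Sca+ received γ-irradiation of 0, 0.02, 0.1 or 0.5 Gy and were given to lethally irradiated recipient mice. After 6 months, LT-HSCs were sorted as Lin- ckit+ Sca+ Flk2- CD48- CD150+, and their total RNA was put on 1 array per dose. Cells of all 4 doses, the unirradiated ones included, were therefore transplanted and sorted from irradiated hosts. The gate as given holds no marker that separates donor from host cells. The sources used here give no strain or age and do not say whether mice were pooled. With 1 array per dose there is no spread within a dose, so no pair of doses could be tested. Tests were made only over all 4 arrays together.

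The stem cell markers were bright on all arrays. The values are log2 intensities as deposited, and the median of the mean levels of all named genes, 4.06, served as a mark between brighter and dimmer genes. All 6 measured markers of LT-HSCs (Kit, Slamf1, Procr, Hlf, Mecom and Fgd5) lay above it on each array, and the log2 of their summed intensity was 11.30, 11.82, 11.38 and 11.33 at 0, 0.02, 0.1 and 0.5 Gy. Of the genes whose proteins the sort excluded, Flt3 (Flk2) lay between 4.46 and 5.44, above the mark on every array, and Cd48 had 4.13, 3.08, 4.11 and 4.13, just above the mark on 3 of 4 arrays. Markers of other blood cells varied between arrays. The 9 neutrophil and granulocyte progenitor genes summed to 8.30, 9.41, 10.22 and 9.24 in the order of dose, with 3, 4, 7 and 6 of them at or above the mark. The 5 measured B and plasma cell genes summed to 10.07, 11.07, 9.0 and 8.19, with 2, 3, 3 and 2 at or above the mark, and Ms4a1 and Ebf1 lay below it on every array. The sums were 11.41, 10.97, 11.64 and 11.84 for 5 erythroid genes and 10.07, 10.06, 8.09 and 9.44 for 4 genes of monocytes, macrophages and dendritic cells. They ran from 10.46 to 10.93 for 4 megakaryocyte genes, from 8.60 to 9.99 for 4 T and NK cell genes and from 7.63 to 8.11 for 5 endothelial and stromal genes. Such a sum mostly follows its brightest genes, among them Cd74 of the monocyte, Nkg7 of the T and NK and Jchain of the B and plasma cell list. The erythroid sum did not follow its brightest gene, Car2, alone. It was highest at 0.5 Gy, where Car1 had 10.34 against 8.42 at 0 Gy. Cd3e, Cd3g, Csf1r and Itgam lay below the mark on every array. Car2 was below 0 Gy on all irradiated arrays, whereas Klf1, Gata1 and Car1 were above it at 0.1 and 0.5 Gy. Epor stayed between 4.94 and 5.22. In RNA from sorted cells, fewer cells of a type and less RNA per cell cannot be told apart. The part of these marker levels in the Hox values was not tested.

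Most Hox genes at or above the mark were of the a and b clusters. Averaged over all arrays, 17 of the 38 genes reached the mark, as 50% of all genes do by its definition. They were 8 of 10 genes of the a cluster, 7 of 10 of the b cluster, 2 of 9 of the c cluster and 0 of 9 of the d cluster. By position, 7 of 11 anterior genes (groups 1 to 4), 6 of 11 central genes (groups 5 to 8) and 4 of 16 posterior genes (groups 9 to 13) reached it. The posterior ones were Hoxa9, Hoxa10, Hoxb9 and Hoxc10, and none of the 9 genes of groups 11 to 13 did. Of the 38 genes, 13 were at or above the mark on all 4 arrays at once, 20 were below it on all 4 arrays, and 5 crossed it. A probe set's brightness also depends on its probes, so these counts describe signal against a fixed mark, and transcript amounts of different genes are not ranked.

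**Figure D1:**
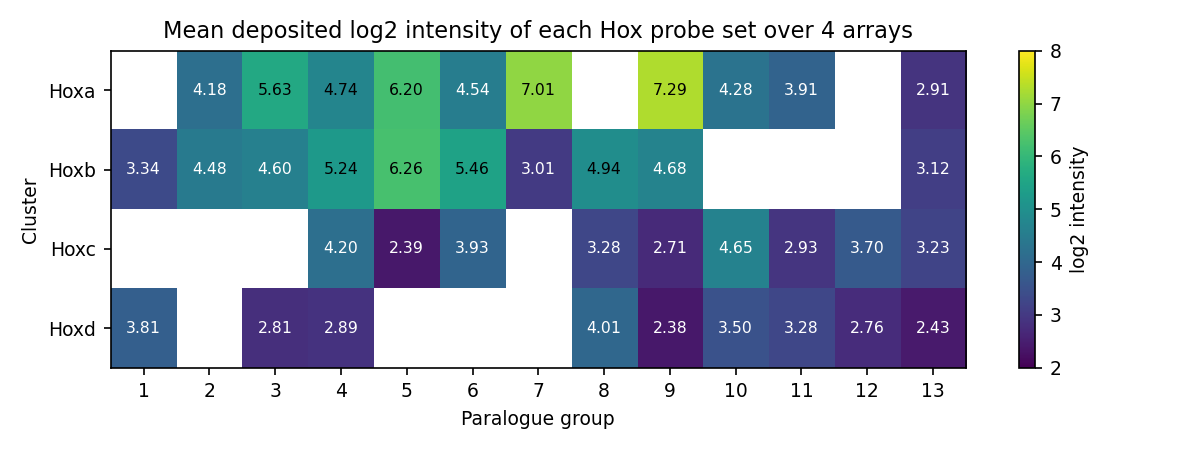
Mean deposited log2 intensity over the 4 arrays, by cluster (rows) and paralogue group (columns). Blank cells hold no probe set among the 38 genes. The a cluster reaches 7.29 at Hoxa9 and the b cluster 6.26 at Hoxb5, the c cluster stays at or below 4.65 and the d cluster at or below 4.01.

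Paralogues differed in this respect. In group 9, Hoxa9 averaged 7.29 and Hoxb9 4.68, both above the mark, whereas Hoxc9 at 2.71 and Hoxd9 at 2.38 lay below it. In group 5, Hoxa5 averaged 6.20 and Hoxb5 6.26, with Hoxc5 at 2.39 below the mark. In group 7, Hoxa7 averaged 7.01 and Hoxb7 3.01. Of the 4 genes of group 4, 3 reached the mark, and Hoxd4 at 2.89 did not.

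At least 1.5-fold apart from 0 Gy at any dose were 12 of the 38 Hox genes, against 18.3% of all named genes. Of the 17 at or above the mark 8 were, against 26.1% of all genes at or above it. The mark was set against the mean of the same 4 arrays that are compared. A gene such as Hoxb2, under the mark at 0.1 and 0.5 Gy, thus reached it only through its higher arrays. Of the 12 genes the b cluster held 7, the a cluster 3, the c cluster 2 and the d cluster 0. At 0.02 Gy, 4 Hox genes were at least 1.5-fold higher than at 0 Gy, where 4.59% of all genes were. In the other direction 1 was lower, where 4.27% of all genes were. At 0.1 Gy 2 were higher and 5 lower, against 3.99% and 4.94% of all genes. At 0.5 Gy 1 was higher and 6 lower, against 4.36% and 5.39% of all genes. At least 2-fold higher were 0 Hox genes at each dose, against 1.81%, 1.13% and 1.23% of all genes at 0.02, 0.1 and 0.5 Gy, and 2-fold lower were 0, 1 and 3, against 1.1%, 1.69% and 1.87%. At 3-fold 0 were higher, against 0.785%, 0.341% and 0.362%, and 0, 1 and 2 were lower, against 0.28%, 0.569% and 0.712%. The median log2 difference over the 38 genes was 0.00, -0.03 and -0.03 at 0.02, 0.1 and 0.5 Gy. All of these counts rest on the same 0 Gy array. The b cluster alone, with 10 genes, had medians of 0.29, -0.31 and -0.48, where the median of all genes was 0 at each dose. The medians of the 10 genes of the a cluster were 0.09, 0.00 and -0.10.

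**Figure D2:**
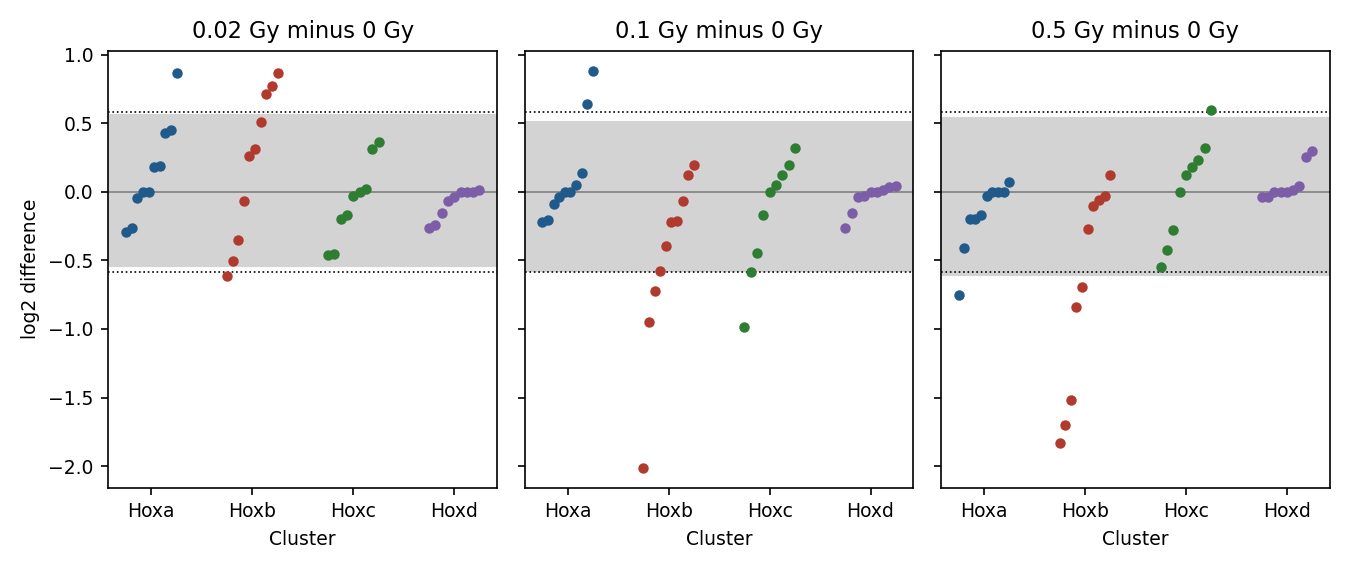
Log2 difference from 0 Gy of each of the 38 Hox genes (points, sorted within a cluster), for each dose. The grey band holds the middle of all named genes, between their 5th and 95th percentiles, and dotted lines mark 1.5-fold. The Hoxb points extend below the band at 0.1 and 0.5 Gy and down to -2.01, and past both of its edges at 0.02 Gy. Some Hoxa and Hoxc points also lie outside the band, while the Hoxd points lie within it at all doses.

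The largest differences were those of Hoxb8, a central gene of the b cluster known for its activation in a mouse myeloid leukaemia line and for immortalising myeloid progenitors when forced on. Hoxb8 (Entrez gene 15416) read 6.03, 5.53, 4.02 and 4.20 (log2) on the arrays of 0, 0.02, 0.1 and 0.5 Gy. The 0.1 and 0.5 Gy arrays were the low ones, near the mark, and the 0 Gy array was the highest. Hoxb8 was 4.04-fold lower at 0.1 Gy and 3.56-fold lower at 0.5 Gy than at 0 Gy, and its difference at 0.02 Gy was -0.50. Against the mean of the other 3 arrays the log2 differences were -1.24 at 0.1 Gy and -0.99 at 0.5 Gy. The 0.1 Gy value lies just below the mark, so the sizes are uncertain.

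Hoxb6, a central gene that enforces myeloid growth when overexpressed in mouse marrow, had 5.83, 6.60, 5.11 and 4.31. It was highest at 0.02 Gy and lowest at 0.5 Gy. At 0.5 Gy it was 2.86-fold lower than at 0 Gy, at 0.1 Gy 1.65-fold lower, and at 0.02 Gy 1.71-fold higher. Hoxb3, an anterior gene whose loss together with Hoxb4 impairs stem cell function in mice, had 4.96, 5.82, 4.38 and 3.26. Its order of arrays was that of Hoxb6. At 0.5 Gy it was 3.25-fold lower than at 0 Gy, with the 0.5 Gy value below the mark, so the size of this difference is uncertain. The 0.1 Gy difference of Hoxb3, -0.58, was just short of 1.5-fold, and at 0.02 Gy it was 1.82-fold higher.

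Hoxb2, which patterns the hindbrain in the embryo, had 4.86, 5.12, 3.91 and 4.02 in the order of dose. It was lower at 0.1 Gy by 0.95 and at 0.5 Gy by a difference of -0.84, with both values just under the mark. Hoxb2, Hoxb6 and Hoxb8 were thus the 3 of 38 Hox genes at least 1.5-fold lower at both 0.1 and 0.5 Gy, a pattern of 2.54% of all genes. Hoxb7 was dim throughout, at 3.22, 3.15, 3.15 and 2.52, and its difference at 0.5 Gy was -0.70.

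Promoter sequence is shown for Hoxb8, the gene with the largest difference, for Hoxb4 of the same cluster, which stayed within 1.5-fold, and for Hoxa5, the gene of the a cluster that was lower at 0.5 Gy. RefSeq promoter windows (GRCm38.p6) were at hand for 22 of the 38 genes, in 24 windows. Each stretch is the 250 bases before the annotated start, read 5′ to 3′ on the gene's strand. They are chr11:96281655-96281904 on the + strand, chr11:96318017-96318266 on the + strand and chr6:52204588-52204837 on the - strand. Capitals mark matches, on either strand, to any of 7 motifs.
Hoxb8: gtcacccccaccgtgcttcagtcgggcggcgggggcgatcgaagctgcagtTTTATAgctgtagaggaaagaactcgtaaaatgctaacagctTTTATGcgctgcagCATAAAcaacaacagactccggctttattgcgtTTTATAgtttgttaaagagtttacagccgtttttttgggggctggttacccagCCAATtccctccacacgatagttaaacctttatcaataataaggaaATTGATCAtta
Hoxb4: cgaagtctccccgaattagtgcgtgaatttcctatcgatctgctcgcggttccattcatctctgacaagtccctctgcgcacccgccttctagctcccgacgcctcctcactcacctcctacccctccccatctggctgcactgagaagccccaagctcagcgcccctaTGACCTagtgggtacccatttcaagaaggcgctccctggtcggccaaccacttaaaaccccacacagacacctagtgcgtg
Hoxa5: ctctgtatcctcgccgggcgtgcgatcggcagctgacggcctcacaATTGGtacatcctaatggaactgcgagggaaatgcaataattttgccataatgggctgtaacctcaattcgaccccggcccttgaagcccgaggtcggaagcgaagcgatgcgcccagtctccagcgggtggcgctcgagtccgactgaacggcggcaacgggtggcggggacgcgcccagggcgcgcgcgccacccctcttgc

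The Hoxb8 window holds 2 matches to TTTATG, the site of the caudal factors Cdx1, Cdx2 and Cdx4 that induce Hox genes in the embryo, a motif held by 10.8% of 32851 promoter windows of this length and by 5 of the 24 Hox windows. It also holds 2 matches to the TATA box TATAAA on the reverse strand (12.4% of windows), 1 to CCAAT (33.8%) and 1 to TGATNNAT, the joint site of Hox and Pbx proteins (7.68%). The Hoxb4 window holds 1 match, to the nuclear receptor half-site AGGTCA (14%), and the Hoxa5 window 1, to CCAAT. No match was found in these windows for CACGTG, the E-box bound by Usf1 and Usf2, or for the Meis site TGACAG, which 6.02% and 15.9% of all windows hold. No base lay in 2 motifs in these 3 windows. A match to letters is a description and not evidence of binding.

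The other b cluster genes at or above the mark were highest at 0.02 Gy and near 0 Gy at the higher doses. Hoxb5, whose activity marks long-term stem cells in the mouse, had 6.16, 6.87, 5.95 and 6.06 at 0, 0.02, 0.1 and 0.5 Gy. The 0.02 Gy array stood 1.64-fold above 0 Gy, and the others lay within 0.21 of it. Hoxb4, which expands mouse stem cells when overexpressed, had 5.05, 5.56, 5.18 and 5.18, with equal values at 0.1 and 0.5 Gy and a difference of 0.51 at 0.02 Gy. Hoxb9 had 4.73, 5.04, 4.51 and 4.46, all within 1.5-fold of 0 Gy. Of the dim members, Hoxb1 was lower at 0.02 Gy, at 3.0 against 3.61 at 0 Gy, with 3.21 at 0.1 Gy and 3.55 at 0.5 Gy. Hoxb13, a prostate and tail gene, stayed between 2.82 and 3.37.

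**Figure D3:**
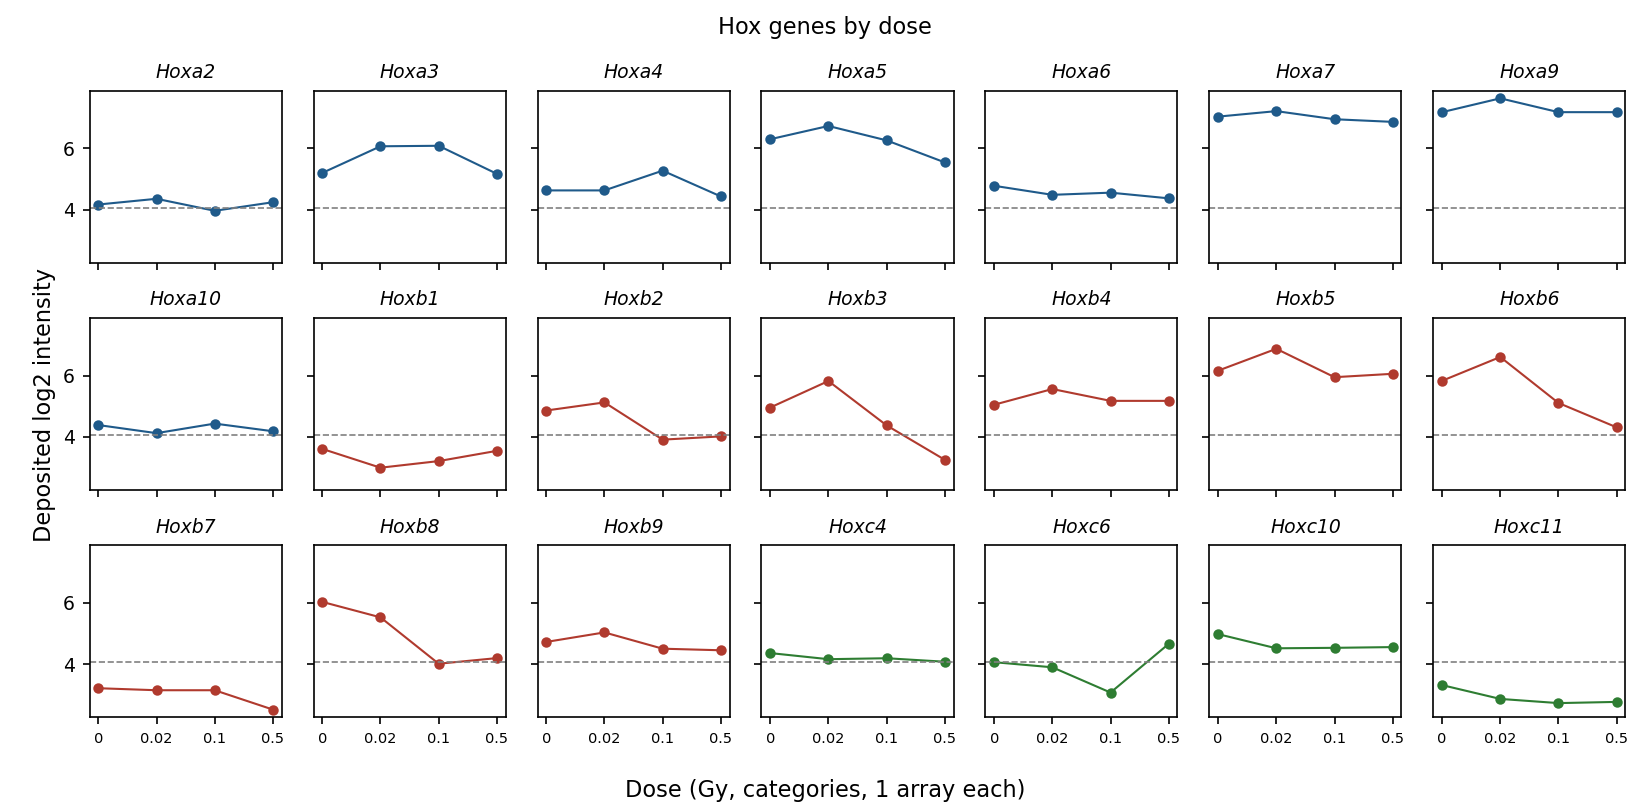
Deposited log2 intensity at 0, 0.02, 0.1 and 0.5 Gy (1 array per point, doses as categories) of the 21 Hox genes at or above the mark or at least 1.5-fold apart from 0 Gy. The dashed line is the mark of 4.06, and colours are blue for Hoxa, red for Hoxb and green for Hoxc. Hoxb3 and Hoxb6 peak at 0.02 Gy and are lowest at 0.5 Gy, and Hoxa7 and Hoxa9 stay near 7.

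In the a cluster Hoxa7, Hoxa9 and Hoxa10 stayed within 1.5-fold of 0 Gy. Hoxa9, which supports stem cell numbers in mice and is turned on in leukaemias with Kmt2a fusions, had 7.17, 7.62, 7.17 and 7.17, identical on the 0, 0.1 and 0.5 Gy arrays. The 0.02 Gy array was higher by 0.45. Hoxa7, another target of Kmt2a fusions, had 7.03, 7.21, 6.94 and 6.86. Hoxa10, which promotes myeloid and megakaryocytic growth when overexpressed, was near the mark at 4.39, 4.12, 4.44 and 4.19.

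Hoxa3, Hoxa4 and Hoxa5 each passed 1.5-fold at some dose. Hoxa5, which in human progenitors favours the myeloid over the erythroid fate, had 6.29, 6.72, 6.26 and 5.54 at 0, 0.02, 0.1 and 0.5 Gy. The 0.5 Gy array was the low one, 1.69-fold below 0 Gy. Hoxa3, needed for the thymus in the embryo, had 5.20, 6.06, 6.08 and 5.17. It was higher by 0.87 at 0.02 Gy and by 0.88 at 0.1 Gy, and at 0.5 Gy it was within 0.03 of 0 Gy. Hoxa4 had 4.63, 4.63, 5.27 and 4.43, and its 0.1 Gy array was higher by 0.64, the others staying within 1.5-fold. Hoxa6 had 4.78, 4.48, 4.55 and 4.37, and Hoxa2, a hindbrain gene, had 4.17, 4.35, 3.96 and 4.24. Hoxa11 and Hoxa13, which pattern the limb and the genital tract, lay below the mark on every array, Hoxa13 between 2.88 and 3.01.

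Across clusters, the 0.02 Gy array carried the single highest value in 11 of the 38 genes, against 17.7% of all named genes, and in 10 of the 17 at or above the mark, against 21.3% of such genes. The 0.5 Gy array was the single lowest in 10 of 38, against 21.4% of all genes, and in 9 of the 17, against 23.8%. The 17 were picked by the mean of these same arrays, as were the genes they are set against. Set directly against 0.02 Gy, 0.5 Gy was at least 1.5-fold lower for 8 of the 38 genes, 5.74% of all genes being so, and higher for 1, against 4.17%. The 8 were Hoxa3, Hoxa5 and 6 genes of the b cluster, where Hoxb3 was 5.92-fold and Hoxb6 4.89-fold lower. The 0.1 Gy array was at least 1.5-fold lower than 0.02 Gy for 6 of the 38 genes, against 5.5%, and higher for 1, against 4.12%. The 0.02 Gy array is also the one with the highest sums of LT-HSC markers and of B and plasma cell markers, and the part of that in these values was not tested.

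**Figure D4:**
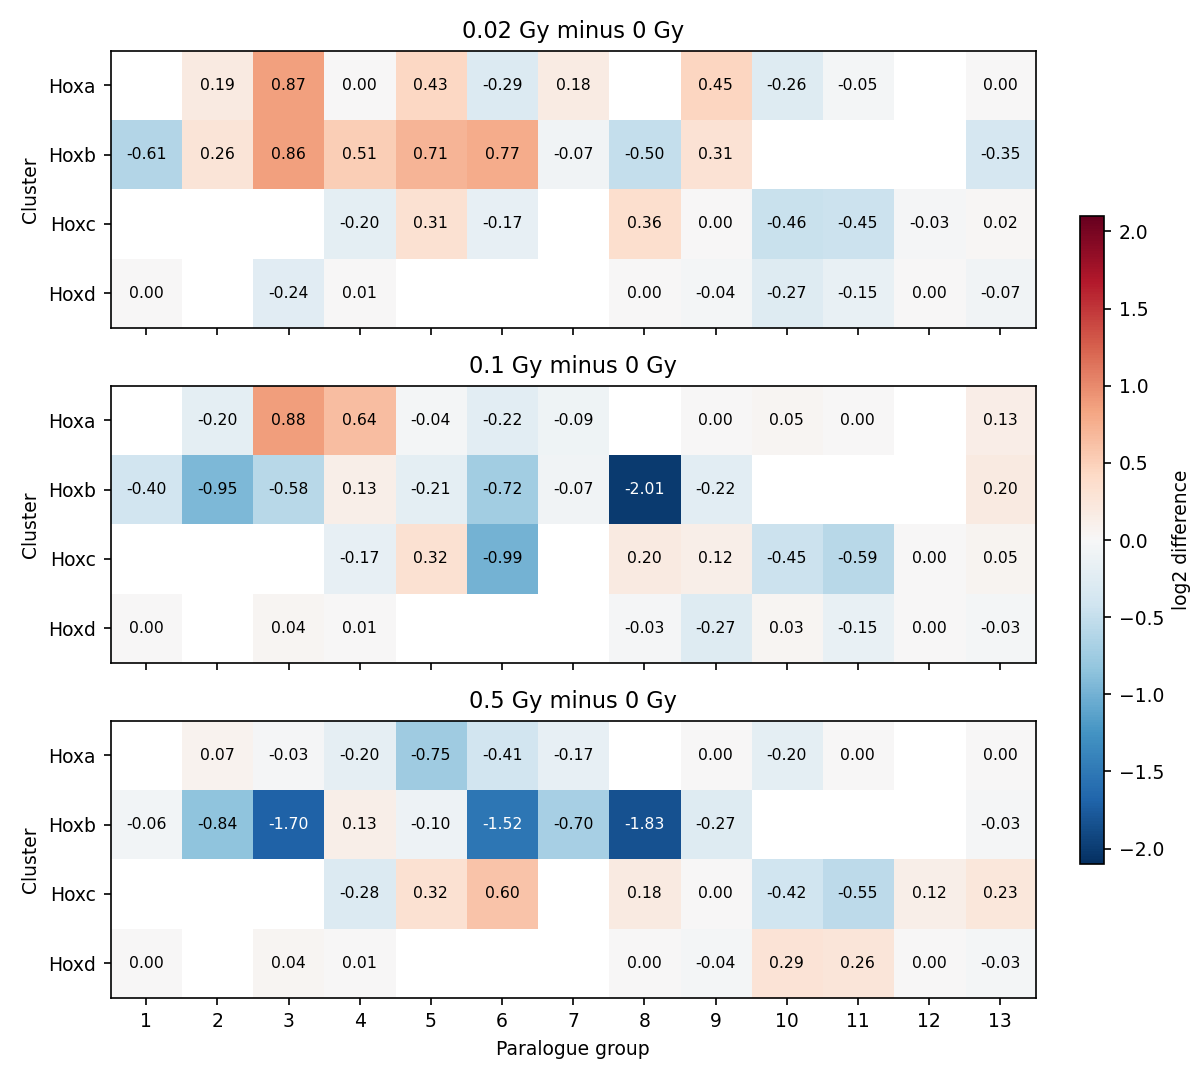
Log2 difference from 0 Gy by cluster (rows) and paralogue group (columns) at 0.02, 0.1 and 0.5 Gy, red above and blue below 0 Gy. Blank cells hold no probe set among the 38 genes. The b cluster holds the darkest cells, -2.01 for Hoxb8 at 0.1 Gy and -1.83, -1.70 and -1.52 for Hoxb8, Hoxb3 and Hoxb6 at 0.5 Gy.

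The c cluster held 2 genes at or above the mark. Hoxc10, a gene of the lumbar region in the embryo, had 4.98, 4.52, 4.54 and 4.56. The 3 irradiated arrays lay close together and 0.42 to 0.46 below 0 Gy. Hoxc4, which takes part in B cell antibody switching in the mouse, had 4.36, 4.17, 4.20 and 4.08. Hoxc6 crossed the mark, at 4.07, 3.90, 3.08 and 4.67. It was 1.98-fold lower at 0.1 Gy and higher by 0.60 at 0.5 Gy, so its arrays went both ways. Hoxc11, the posterior neighbour of Hoxc10 in number, was dim at 3.32, 2.87, 2.74 and 2.78, and its difference at 0.1 Gy was -0.59. The other 5 genes of the c cluster (Hoxc5, Hoxc8, Hoxc9, Hoxc12 and Hoxc13) stayed between 2.15 and 3.79 and within 0.36 of 0 Gy. Among them Hoxc13, which acts in hair follicles, had 3.16, 3.17, 3.21 and 3.39, and was the only one of the 38 genes with 4 different values in increasing order of dose, against 1.81% of all genes. In decreasing order there were 0, against 1.99%.

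The d cluster was flat. All 9 genes (Hoxd1, Hoxd3, Hoxd4 and Hoxd8 to Hoxd13), which in the embryo pattern the limbs and the trunk, lay below the mark on all 4 arrays, between 2.20 and 4.02. Their largest difference from 0 Gy was 0.29, for Hoxd10 at 0.5 Gy. Hoxd1 had 3.81 and Hoxd12 2.76 on every array, and 8 of the 9 genes had at least 1 pair of exactly equal values. Over the 38 Hox genes 17 had such a tie and 2 had the same value on all 4 arrays, where 57.4% and 6.78% of all named genes did.

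Fits over all 4 arrays put few Hox genes past the threshold. limma compared the 3 irradiated arrays with 0 Gy, with differences between doses counted as error, and called 213 of 23185 genes at an adjusted p under 0.05, which is 0.919%. Of the 38 Hox genes 1 was among them. Hoxc5 had 2.15, 2.47, 2.47 and 2.47 in the order of dose, below the mark on every array, and its log2 difference of 0.32 ± 0.01 (SE) had a limma adjusted p of 0.0473. This call was absent after each of 3 rescalings and when any irradiated array was left out. The small SE of Hoxc5 comes from nearly equal irradiated values, exactly tied at 0.1 and 0.5 Gy. At 0.0121 it was close to the 0.0118 of Hoxd1, which had 1 value on all arrays, so it does not measure precision. Hoxc10 had a limma difference of -0.44 ± 0.02 (SE) and an adjusted p of 0.0620, and Hoxc11 had -0.53 ± 0.07 (SE) and 0.170. These were the 3 Hox genes at an unadjusted p under 0.05, where 11.8% of all genes were. Hoxb8 had a limma difference of -1.45 ± 0.85 (SE) and an adjusted p of 0.868.

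A straight line in dose, fitted with limma, called 0 of the 38 Hox genes and 0% of all genes. At an unadjusted p under 0.05 there were 4 Hox genes (Hoxa5, Hoxb7, Hoxc12 and Hoxc13), where 13.7% of all genes were. The smallest limma adjusted p of a Hox gene was 0.216, for Hoxb7 and Hoxc13, with slopes of -1.38 ± 0.13 and 0.45 ± 0.04 log2 per Gy (SE). Both genes lay below the mark on every array, and the 0.5 Gy array largely sets both slopes. Hoxb3 had the steepest slope, -4.09 ± 1.30 log2 per Gy (SE), at a limma adjusted p of 0.415. Each fit had 2 residual degrees of freedom.

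The clusters also carry noncoding RNAs, among them the microRNA genes Mir10a and Mir196a-1 in the b cluster, Mir10b in the d cluster and Mir196a-2 in the c cluster. Their mature RNAs are shown because miR-196 is known to cut the Hoxb8 transcript in mouse embryos. Sequences are from RefSeq (GRCm38.p6), 5′ to 3′, with the seed (bases 2 to 8) in capitals. All are on the + strand, Mir10a at chr11:96317186-96317208, Mir10b at chr2:74726074-74726096 and Mir196a-1 and Mir196a-2 at chr11:96265187-96265208 and chr15:102973365-102973386.
mmu-miR-10a-5p: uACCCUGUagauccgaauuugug
mmu-miR-10b-5p: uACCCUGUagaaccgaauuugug
mmu-miR-196a-5p: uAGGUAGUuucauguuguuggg

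The miR-10 pair shares its seed and differs by U12A, counted from the 5′ end of miR-10a-5p, and both miR-196a genes give the same mature RNA. The arrays probe the genes of these RNAs and their values need not follow the mature forms. Mir10a had 2.70, 2.03, 2.09 and 2.17 at 0, 0.02, 0.1 and 0.5 Gy, so the 3 irradiated arrays lay below 0 Gy, the first of them by a difference of -0.67. Mir10b stayed between 1.74 and 1.93, Mir196a-1 had 3.21 on each array and Mir196a-2 lay between 3.21 and 3.32, all below the mark. Of 9 measured noncoding RNAs of the list, 1 was at or above the mark, Hoxaas3, an antisense RNA of the a cluster. It had 5.08, 4.82, 4.40 and 4.67, with the 0.1 Gy array lowest by a difference of -0.68. Hotair of the c cluster, a partner of Polycomb proteins, lay between 2.77 and 3.08.

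Of the DNA-binding partners of Hox proteins, 10 of 11 listed TALE genes were measured. The numbers past 1.5-fold in the order 0.02, 0.1 and 0.5 Gy were 2, 1 and 2 upward, against 4.59%, 3.99% and 4.36% of all genes, and 0, 1 and 1 downward, against 4.27%, 4.94% and 5.39%, with medians of 0.14, 0.04 and 0.11. Meis1, the main partner of Hoxa9 in stem cells and leukaemia, was bright and steady at 9.63, 9.65, 9.61 and 9.78. Pbx3, a Hox partner in leukaemias with Kmt2a fusions, had 7.32, 6.79, 6.26 and 4.89, lower at each higher dose, with a difference of -2.42 at 0.5 Gy. Pbx4 ran the other way, with 5.11, 5.29, 6.22 and 6.49 and a difference of 1.37 at 0.5 Gy. The slope of Pbx3 in the line fit was -4.31 ± 0.71 log2 per Gy (SE) and that of Pbx4 2.37 ± 1.03 (SE). Their limma adjusted p were 0.218 and 0.587, and the 0.5 Gy array largely sets both slopes. Beside Pbx3 and Pbx4, Pknox1 was higher by 0.63 and Meis3 by 0.82 at 0.02 Gy, and Tgif1 by 0.59 at 0.5 Gy. Meis3 was dim, at 3.42, 4.24, 3.68 and 3.68, and above the mark only at 0.02 Gy.

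**Figure D5:**
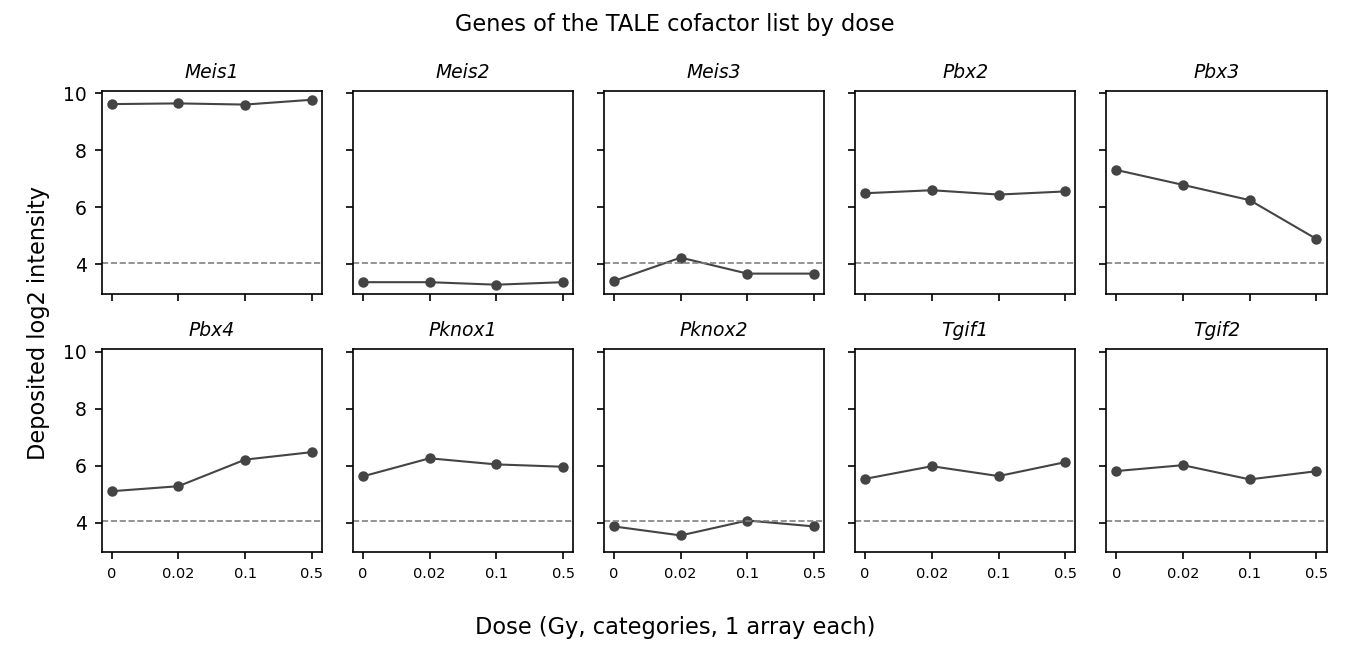
Deposited log2 intensity at 0, 0.02, 0.1 and 0.5 Gy (1 array per point, doses as categories) of the 10 measured genes of the TALE list, with the mark of 4.06 dashed. Pbx3 is lowest at 0.5 Gy, at 4.89 against 7.32 at 0 Gy, Pbx4 is highest there at 6.49, and Meis1 stays between 9.61 and 9.78.

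On the trithorax side all 18 listed genes were measured and lay above the mark, with medians of 0.00, -0.02 and -0.16. Past 1.5-fold from 0 Gy lay 0, 1 and 0 upward, against 4.59%, 3.99% and 4.36% of all genes in the order of dose, and 0, 0 and 1 downward, against 4.27%, 4.94% and 5.39%. Kmt2a had 8.36, 8.54, 8.40 and 7.97 and Men1, its partner menin, 7.74, 7.74, 7.70 and 8.26. The gene that was higher at 0.1 Gy was Dot1l, a histone methyltransferase recruited by Kmt2a fusions, by 0.80, and the one that was lower at 0.5 Gy was Kdm6b, a demethylase of the Polycomb mark, by a difference of -0.64. Mllt3, a Kmt2a fusion partner that supports stem cells, had 9.21, 9.77, 8.75 and 8.79, within 1.5-fold of 0 Gy but 1.01 apart between the 0.02 and 0.1 Gy arrays. Wdr5, a subunit of the Kmt2a complex, had 7.39, 6.99, 7.28 and 7.78.

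On the Polycomb side 20 of 21 listed genes were measured, all at or above the mark. Upward past 1.5-fold were 2, 0 and 1 of them in the order of dose, against 4.59%, 3.99% and 4.36% of all genes, and downward 4, 2 and 5, against 4.27%, 4.94% and 5.39%, with medians of -0.14, -0.04 and 0.00. Bmi1, needed for stem cell self-renewal, had 6.55, 5.78, 6.32 and 5.59. Ezh1, a methyltransferase of resting stem cells, had 6.75, 7.45, 5.73 and 6.29, and its relative Ezh2 had 8.33, 7.85, 8.67 and 8.33. Cbx6 had 7.23 at 0 Gy and 6.58 on each irradiated array, with a limma adjusted p of 0.0456 in the comparison of irradiated arrays with 0 Gy. Equal irradiated values leave that fit almost no spread for this gene, and the call was absent after each of the 3 rescalings and when any irradiated array was left out. Phf19 had 5.56, 4.58, 5.56 and 6.22, so 0.02 and 0.5 Gy lay on opposite sides of 0 Gy.

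Of 14 inducers and modulators, 10 had a mean at or above the mark. Past 1.5-fold lay 2, 2 and 1 upward in the order of dose, against 4.59%, 3.99% and 4.36% of all genes, and 0, 3 and 2 downward, against 4.27%, 4.94% and 5.39%. The caudal genes Cdx1 and Cdx4 had 3.40 and 2.76 on every array, and Cdx2 lay between 4.61 and 4.71. Retinoic acid receptors induce Hox genes in the embryo. Rara had 5.58, 5.43, 4.96 and 4.98 and Rarg 4.40, 5.26, 5.0 and 4.96, so that the 2 lay on opposite sides of 0 Gy at all 3 doses. Rarb, the receptor gene that is itself induced by retinoic acid, was among the lower at 0.1 and 0.5 Gy, at 4.46 and 4.31 against 6.91 at 0 Gy. Gmnn, which encodes the Hox antagonist geminin, had 7.31, 7.02, 7.38 and 7.65. Usf1 was dim, at 3.23, 4.38, 3.89 and 3.89, and its partner Usf2 had 8.05, 7.72, 8.08 and 7.63.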

How the data were processed

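RNA of LT-HSCs was hybridised to 1 array per dose after Affymetrix whole-transcript labelling, per the labels. The deposited log2 intensities, 1 per Entrez gene, are processed values of the authors, and Partek is named in the submitters' processing notes without role or version. The log base was inferred from the range of 1.22 to 13.02. The sources used here state no background correction, normalization or build, and no batch information was found. Array medians were 4.02, 4.07, 4.02 and 4.01 at 0, 0.02, 0.1 and 0.5 Gy. The number of arrays limits the precision.

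Values were used as deposited. Of 25206 probe sets, 23185 had a symbol in the platform table. Differences were counted at 1.5-fold and ties within 1e-09. Both fits used lmFit and eBayes of limma 3.58.1 under R 4.3.3, adjusted over all 23185 genes by Benjamini-Hochberg with a threshold of 0.05. They take the spread of the single 0 Gy array to equal that of the others. Labels do not say that arrays are of separate animals. Genes with no residual spread in a fit, for example those equal on the 3 irradiated arrays, got their variance from the prior that limma shares over all genes. Cbx6 and Hoxd1 thus had the same SE of 0.0118 in the comparison of irradiated arrays with 0 Gy. The fits were also run on simulated data with independent noise and no tied values. That setting does not cover the tied values of these arrays, so it does not vouch for calls that rest on ties. Hox genes, lists and tests were chosen with earlier results of these data known. Values are given for Hox genes at or above the mark or 1.5-fold apart. For each list, values are given for only some genes, chosen in part for their role. List genes past 1.5-fold can be missing from them, such as Pcgf2, Cbx2 and Jarid2 of the Polycomb list. Alternatives were 3 rescalings, other folds, a filter at the mark, another control, an intensity trend, other dose scales and leaving out arrays.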

Additional observations from a re-analysis of the deposited data

How the results depend on the processing

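Quantile normalization, median centring and cyclic loess moved none of the 19 Hox differences past 1.5-fold by more than 0.07 (log2), and 56 of 57 rescaled values stayed past it. The exception was Hoxc11 at 0.1 Gy, at -0.57 after median centring. At 2-fold, 0 Hox genes were higher at each of 0.02, 0.1 and 0.5 Gy and 0, 1 and 3 were lower, and at 3-fold 0 were higher and 0, 1 and 2 lower. With genes below the mark left out, 0, 3 and 5 Hox genes were at least 1.5-fold lower at 0.02, 0.1 and 0.5 Gy. Of all 11593 genes at or above the mark, 719, 867 and 956 were. At 0.5 Gy 0 of these Hox genes were higher, against 686 of the 11593. The Hox medians were 0.26, -0.20 and -0.27, where the median of the 11593 was 0 at each dose. This filter used the mean of the same arrays that were compared. Set against the mean of the other 3 arrays in place of 0 Gy, 6 Hox genes were higher at 0.02 Gy and 0, 3 and 7 lower at the 3 doses. The share of all named genes under this other control was not computed, so these counts have no background. Of the 19 differences 15 moved by over 0.1 and none changed its sign: at 0.02 Gy Hoxb3 had 1.62 and Hoxb6 1.52, at 0.1 Gy Hoxb8 had -1.24, Hoxb6 -0.48 and Hoxc11 -0.25, and at 0.5 Gy Hoxb8 had -0.99 and Hoxc6 0.98. With a higher mark of 5.66, which 33.3% of all named genes reach, 4 of 38 Hox genes reached it. The limma comparison of irradiated arrays with 0 Gy called 0 Hox genes after quantile normalization, median centring, cyclic loess or the filter (which leaves out Hoxc5), and 1 with an intensity trend. Leaving out each irradiated array gave 0 to 0 in both fits, and the line in dose gave 0 under every alternative run. The cause of these differences was not tested. No paired analysis was possible because each dose has 1 array. Over all 23185 genes the first fit called 213 genes as deposited and 320 with the trend, but 0 after rescaling, with the filter or with an array left out.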

Other observations

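Genes that flank the clusters were looked at beside the Hox genes. Of 15 measured neighbours, all within the same chromosome region as a cluster, 0 were at least 1.5-fold higher at any of the 3 doses, against 4.59%, 3.99% and 4.36% of all genes, and 2, 2 and 3 were lower at 0.02, 0.1 and 0.5 Gy, against 4.27%, 4.94% and 5.39%. Beside the a cluster Hibadh had 7.47, 7.04, 6.83 and 7.53. Around the b cluster Cbx1 had 8.71 at 0, 0.02 and 0.1 Gy and 8.54 at 0.5 Gy, and Snx11 stayed between 4.43 and 4.52. Skap1, Ttll6 and Calcoco2 lay below the mark on every array, Ttll6 with the same value on each. None of the 5 measured b cluster neighbours was 1.5-fold apart at any dose, against 18.3% of all named genes. So few genes, most of them dim, allow no reading of this count. Near the c cluster Calcoco1 had 7.04, 6.47, 5.85 and 5.81 in the order of dose. Next to the d cluster Lnpk had 6.10, 5.11, 6.16 and 5.28 and Mtx2 6.89, 6.25, 6.89 and 6.28, both lower at 0.02 and 0.5 Gy.

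Of 10 partners and targets of Hox factors in blood cells, 0, 2 and 1 lay past 1.5-fold upward in the order of dose. Of all genes 4.59%, 3.99% and 4.36% did. Downward there were 1, 1 and 2, against 4.27%, 4.94% and 5.39%. Myb, Lmo2, Gfi1 and Erg stayed within 0.20 of 0 Gy. Flt3 was higher by 0.98 at 0.1 Gy. Cd34 had 8.68, 7.79, 9.77 and 9.70 at 0, 0.02, 0.1 and 0.5 Gy, below 0 Gy at the lowest dose and above it at the others. Id2, an inhibitor of helix-loop-helix factors, had 5.82, 5.76, 4.72 and 5.01, and the survival gene Bcl2 had 8.93, 8.63, 8.71 and 8.15.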
